A study of Mus musculus with 23 samples.

Results

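The genes described are 10 immediate early genes of the mouse, which neurons transcribe within minutes of activity: Arc, Fos, Fosb, Jun, Junb, Egr1, Egr2, Nr4a1, Nr4a2 and Ier2. They were chosen by gene symbol, as all probe sets that the array annotation pairs with 1 of these genes and no other. These were 17 of 45136 probe sets, 13 on the MOE430A array, where each of the 10 genes had at least 1, and 4 on the MOE430B array, all for Nr4a2. The other genes with such a probe set brought the total to 18192 genes.

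The study asked what long-term inhibition of the proteasome by UBB+1, a frameshifted human ubiquitin B that cannot be attached to target proteins, does in mice. For the arrays, the CA3 region of the hippocampus was cut with a laser from cresyl violet-stained frozen sections, and its RNA was amplified in 2 rounds and hybridised to Affymetrix arrays. Each sample is 1 animal on 1 kind of array. UBB+1 tg mice were heterozygous for the transgene, kept on a C57BL/6J background and 18 months old. Wild-type mice were their non-transgenic littermates of the same age and background. In both groups the animals had been killed with carbon dioxide, and no other treatment is named. The transgene is driven by the CaMKIIα promoter, so that it is made in neurons after birth, most strongly in the forebrain, and the tg group rests on a single line. MOE430A held 6 UBB+1 tg and 5 wild-type mice. MOE430B held the same mice and 1 further wild-type mouse, 6 and 6, so that the samples come from 12 animals. Animals are called by genotype and number, as tg270 or wt287.

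Immediate early genes need no new protein for their induction. Calcium entry and kinases such as ERK act on factors already bound to their promoters, CREB at cAMP response elements and serum response factor at CArG boxes, and the mRNAs decay again quickly. Fos, Fosb, Jun and Junb encode subunits of the AP-1 transcription factor, Egr1 and Egr2 zinc finger factors, Nr4a1 and Nr4a2 orphan nuclear receptors, Ier2 a small nuclear protein, and Arc a protein that is translated near synapses and drives the internalisation of AMPA receptors. In the hippocampus they are widely used as marks of neurons that were recently active, and several are needed for lasting memory.

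The arrays differed between animals in ways that cut across the genotypes. Clustering on the correlation of all probe sets gave 3 array sets, which also differed in the 3'-5' difference, the mean excess of the 3' over the 5' control probe sets of Gapdh and beta-actin on the log2 scale, a sign of how complete the amplified RNA was. On MOE430A the low set (tg271, wt287, wt290) had differences of 2.65 to 3.43, the middle set (tg273, tg274, tg276, tg277, wt291, wt321) 4.44 to 4.62 and the high set (tg270, wt289) 6.05 to 6.10. A probe set that detects the transgene's promoter lay between 8.45 and 9.34 in UBB+1 tg mice and between 6.41 and 6.85 in wild-type mice, so that the genotypes fit the labels. All 9 CA3 pyramidal markers were measured and none had an unadjusted p under 0.05. In such pieces of tissue, fewer cells of a type and less RNA per cell cannot be told apart.

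Promoter sequence was at hand for 7 of the 10 genes, as windows of 250 bases before to 50 after a transcription start (RefSeq, GRCm38.p6). TGACG, the core letters of the cAMP response element, searched on both strands, lay in such windows of 6 of the 7 (Fos, Fosb, Junb, Egr2, Nr4a1 and Nr4a2, not Jun), against 23% of 26994 genes in the table. Among the 7, the CArG box was found in these windows for Egr2 alone, against 1.81% of all genes. GCGNGGGCG, the letters bound by Egr factors, was found for Fosb, Nr4a1 and Nr4a2, against 6.28%. The complete element TGACGTCA, which contains TGACG, was in none of the 7. A match describes the letters and is no measured binding. Shown are the 120 bases before the start of Fos, which varied most between animals, of Junb and Nr4a2, which were among the genes with the smallest p between the genotypes, and of Jun, which has no match, each 5′ to 3′ on the strand of the gene. Capitals mark TGACG or its reverse complement. The first 2 capitals of the Nr4a2 sequence are the end of another match.
Fos, chr12:85473770-85473889, plus strand: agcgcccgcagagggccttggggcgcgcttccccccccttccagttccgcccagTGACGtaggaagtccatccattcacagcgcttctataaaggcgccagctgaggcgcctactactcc
Junb, chr8:84978749-84978868, minus strand: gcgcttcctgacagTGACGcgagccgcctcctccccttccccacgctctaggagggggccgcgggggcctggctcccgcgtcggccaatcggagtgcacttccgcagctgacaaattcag
Nr4a2, chr2:57124004-57124123, minus strand: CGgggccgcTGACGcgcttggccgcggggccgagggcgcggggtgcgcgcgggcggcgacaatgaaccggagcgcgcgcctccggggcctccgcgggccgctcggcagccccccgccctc
Jun, chr4:95052223-95052342, minus strand: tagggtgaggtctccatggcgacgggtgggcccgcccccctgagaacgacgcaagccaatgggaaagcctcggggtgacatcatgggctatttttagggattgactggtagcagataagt
For Egr2, whose probe set 1427683_at shares its highest animals with Fos, 30 bases are shown around the CArG box upstream of its downstream starts. Another CArG box, CCTTTTTTGG, lies before a start further upstream, in a window without TGACG, and is not shown. In the bases shown, the CArG box and then the reverse complement of TGACG are in capitals.
Egr2, chr10:67537790-67537819, plus strand: cctcagtCCATATATGGgcagcgaCGTCAc

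None of the 17 probe sets passed a false discovery rate of 10% between the genotypes in limma. This was 0 of 13 on MOE430A and 0 of 4 on MOE430B, as over each whole array, where 0% of 22625 and 0% of 22511 probe sets passed. At an unadjusted p under 0.05, 4 of the 13 probe sets on MOE430A were below wild type and 0 above, those of Ier2, Junb, Arc and 1 of the 2 of Nr4a2. Over the array, 1.57% of probe sets were below wild type at this p and 1.91% above. The 4 on MOE430B had no unadjusted p under 0.05, against 1.53% of that array below and 1.52% above. The log2 fold change was below 0 for 12 of 13 probe sets on MOE430A and for 4 of 4 on MOE430B, where the shares over all probe sets were 48.3% and 52.4%. With the brightest probe set of each gene on MOE430A, the median over the 10 genes was −0.24 and 9 were below 0, while the median over 12392 genes was 0.01 and 47.6% were below 0. The 10 genes had been chosen with earlier results of these data known. These counts and medians therefore describe the list and do not test it. The count of 4 was 1 without wt290, 2 without tg273 and 2 without wt291. Other genes made up the count once the array sets were taken into account. With the array set as a block it was 5, against 3.42% of the array below wild type: Junb and Ier2 stayed, Arc and 1450749_a_at of Nr4a2 dropped out, and Fos, the dimmer probe set of Jun and 1450750_a_at of Nr4a2 came in. Within the middle array set alone it was 2, against 2.72% of the array, Fos and the dimmer probe set of Jun, and none of the original 4.

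**Figure D1:**
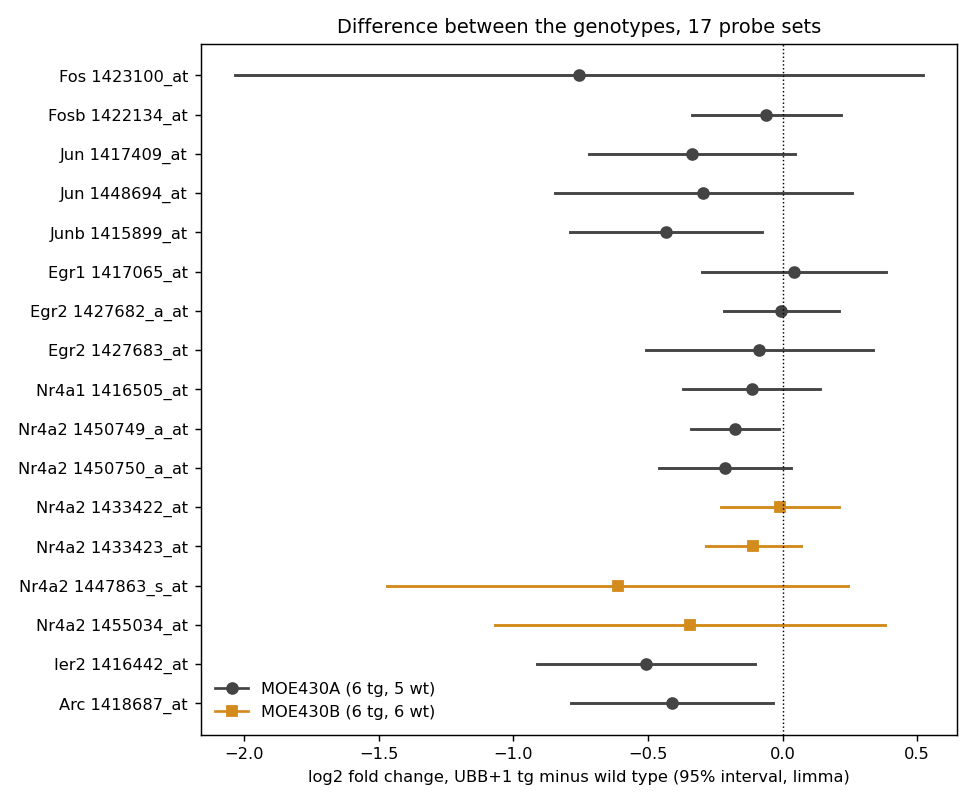
Log2 fold change of each of the 17 probe sets, UBB+1 tg minus wild type, with the 95% interval of the limma fit, for MOE430A (circles) and MOE430B (squares). The points lie left of 0 except for Egr1, and only the intervals of Junb, Ier2, Arc and 1 probe set of Nr4a2 leave out 0.

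Of the AP-1 subunits, Junb had the smallest p. Junb, often a brake on Jun-driven transcription, had log2 RMA values of 5.49 to 6.15 with a median of 5.81 in 6 UBB+1 tg mice, and of 6.04, 5.98, 6.81, 6.38 and 6.09 in wt287, wt289, wt290, wt291 and wt321. All 6 tg mice lay below the wild-type mean and 4 lay below every wild-type mouse. This gave a log2 fold change of −0.43 with a standard error of 0.16 and an adjusted p from limma of 0.984. The exact permutation test of the difference of means, two-sided, gave p = 0.0346. Leaving out each animal moved the log2 fold change between −0.50 and −0.29, and the unadjusted p from limma was 0.0177 with the array set as a block and 0.0597 in the middle set.

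Fos, the partner of the Jun proteins in AP-1 and the most used mark of neuronal activity, differed between animals more than between genotypes. Its log2 values were 7.72, 7.32, 7.24, 9.26, 7.47 and 7.56 in tg270, tg271, tg273, tg274, tg276 and tg277, and 7.54, 7.49, 7.58, 9.58 and 10.38 in wt287, wt289, wt290, wt291 and wt321. The values fell into 2 separate ranges, with tg274, wt291 and wt321 at the top and the other 8 animals within 7.24 to 7.72, and both ranges held both genotypes. From the lowest to the highest animal the range was 8.85-fold. The residual standard deviation within genotypes was 1.07, at the 99.1st percentile of MOE430A, where the median was 0.22. The log2 fold change was −0.76 with a standard error of 0.58, an adjusted p from limma of 0.984 and an exact permutation p of 0.182. It was −0.29 without wt321 and −1.06 without tg274.

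The 3 animals high in Fos all belonged to the middle array set, the largest, whose other animals were low. Within that set, Fos was at 9.26, 7.24, 7.47 and 7.56 in tg274, tg273, tg276 and tg277 and at 9.58 and 10.38 in wt291 and wt321, and the log2 fold change was −2.10 (limma, unadjusted p 0.0111, adjusted 0.923). With the array set as a block over all 11 animals it was −1.14 (limma, unadjusted p 0.0346, adjusted 0.687). In the low set, where 1 tg mouse stood against 2 wild-type mice, the difference was −0.24, and in the high set, with 1 against 1, it was 0.23. These single differences carry no test. The part of the array set in the level of Fos was not tested.

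Fosb and Jun overlapped between the genotypes. Fosb, whose short splice form ΔFosB builds up with repeated activity, had log2 values of 5.93 to 6.49 with a median of 6.13 in UBB+1 tg mice, and 6.19, 6.39, 6.41, 6.27 and 5.91 in the 5 wild-type mice in the order given for Fos. The log2 fold change was −0.06 (standard error 0.13) and became 0.01 with the array set as a block. Jun had 2 probe sets. The brighter, 1448694_at, had values of 6.85 to 8.24 with a median of 7.43 in tg mice, and 7.62, 8.45, 7.45, 7.67 and 7.41 in wild-type mice. Its log2 fold change of −0.29 (standard error 0.25) was −0.11 without wt289, the highest animal. The dimmer, 1417409_at, ran from 4.17 to 4.81 with a median of 4.61 in tg mice, and was 4.64, 4.32, 5.13, 5.21 and 4.95 in wild-type mice. Its log2 fold change was −0.34 with a standard error of 0.17 and an exact permutation p of 0.113. In limma its unadjusted p was 0.0797, but 0.0199 with the array set as a block, where the log2 fold change was −0.37, and 0.0229 within the middle array set, where it was −0.51. The adjusted p were 0.685 and 0.923.

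Egr1 and Egr2 did not separate the genotypes. Egr1, a zinc finger factor that is needed for late long-term potentiation, had log2 values of 10.27 to 11.21 with a median of 10.71 in UBB+1 tg mice, and 10.58, 10.73, 10.83, 10.89 and 10.63 in wild-type mice. It was the only gene with a log2 fold change above 0, at 0.04 with a 95% interval of −0.30 to 0.39, and the value was −0.03 without tg274 and −0.04 without tg277. Of the tg mice, tg273 lay below every wild-type mouse, tg274 and tg277 lay above every one, and tg270, tg271 and tg276 lay among them. Egr2, known best for myelination and hindbrain patterning, had values of 4.64, 4.46, 4.70, 5.25, 4.70 and 4.75 at 1427683_at in tg mice in the order given for Fos, and 4.46, 4.81, 4.46, 5.0 and 5.46 in wild-type mice. At this probe set, the 3 highest animals of Egr2 were those of Fos. The log2 fold change was −0.09 with a standard error of 0.19, and 0.07 without wt321. Its other probe set, 1427682_a_at, lay between 3.58 and 4.0 in tg mice and 3.70 and 3.91 in wild-type mice, and its log2 fold change of −0.005 turned above 0 when any 1 of 6 animals was left out.

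The nuclear receptors differed by probe set. Nr4a1, which represses inflammatory genes and limits spine density in excitatory neurons, had log2 values of 7.01 to 7.35 with a median of 7.28 in UBB+1 tg mice, and 7.44, 7.17, 7.32, 7.75 and 7.11 in wild-type mice. All 6 tg mice lay below the wild-type mean, but the groups overlapped, and the log2 fold change of −0.11 (standard error 0.12) was −0.02 without wt291. Nr4a2, which specifies midbrain dopamine neurons and is induced in hippocampal neurons by learning, had 6 probe sets, and all 6 had log2 fold changes below 0, from −0.61 to −0.01. At 1450749_a_at the values were 5.86 to 6.00 with a median of 5.92 in 6 tg mice, and 6.15, 6.09, 6.19, 6.21 and 5.86 in wild-type mice. All wild-type mice except wt321 lay above every tg mouse. Its log2 fold change of −0.18 (standard error 0.07) had an adjusted p from limma of 0.984 and an exact permutation p of 0.0303. The unadjusted p from limma, 0.0363, was 0.0704 with the array set as a block, 0.0598 with the 3'-5' difference as a term and 0.432 within the middle array set, and stayed under 0.05 in 3 of 11 fits that left out 1 animal. The log2 fold changes of those 11 fits ran from −0.24 to −0.15. The second MOE430A probe set, 1450750_a_at, was at 5.13 to 5.75 with a median of 5.61 in tg mice and at 5.64, 5.70, 5.73, 5.86 and 5.81 in wild-type mice. Its log2 fold change was −0.21 (standard error 0.11), with an unadjusted p from limma of 0.0830. Blocking on the array set gave −0.27, with an unadjusted p of 0.0206 and an adjusted one of 0.685.

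On MOE430B, 2 probe sets of Nr4a2 varied widely between animals and 2 hardly. At 1447863_s_at the values ran from 6.30 to 8.60 with a median of 7.33 in 6 UBB+1 tg mice, and from 7.32 to 8.68 with a median of 7.99 in 6 wild-type mice, a log2 fold change of −0.61 (standard error 0.40). At 1455034_at they ran from 6.29 to 7.98 with a median of 7.32 in tg mice and from 6.90 to 8.35 with a median of 7.51 in wild-type mice, a log2 fold change of −0.34 (standard error 0.33). In each, 3 tg mice lay below every wild-type mouse and the others among them. Their residual standard deviations of 0.77 and 0.65 were at the 98.9th and 97.8th percentile of the array. The other probe sets, 1433422_at and 1433423_at, had log2 fold changes of −0.01 and −0.11 with standard errors of 0.10 and 0.08. Between the 6 probe sets, 1 of 15 pairs varied together across the 11 animals on both arrays, 1450750_a_at with 1455034_at. This pair had Pearson r = 0.86 (permutation p = 0.00014, adjusted 0.0021) and Spearman rho = 0.77 (permutation p = 0.0076). Its r was 0.75 without the 2 animals farthest from the median of 1450750_a_at and 0.91 within the middle array set. The 2 variable probe sets on MOE430B had r = 0.36 with each other. The files do not say which transcript each probe set reads.

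**Figure D2:**
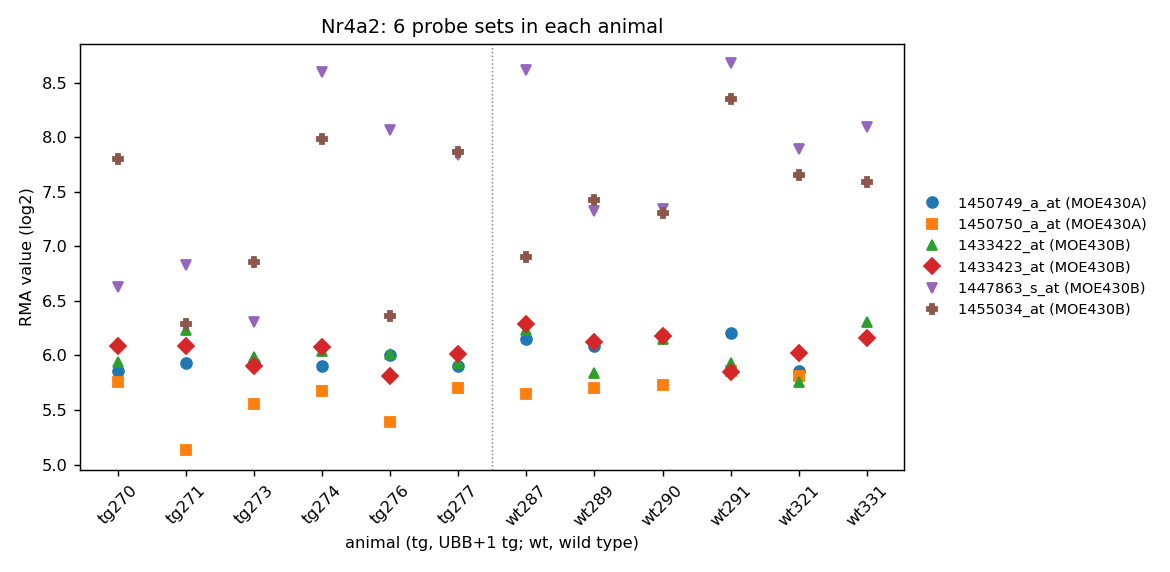
Log2 RMA values of the 6 Nr4a2 probe sets in each of 12 animals, UBB+1 tg left of the dotted line and wild type right of it. The values of 1447863_s_at and 1455034_at range over more than 2 log2 units, the other 4 stay within 1, and wt331 has no MOE430A array.

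Ier2 and Arc gave the remaining low values. Ier2, a nuclear regulator of transcription that growth factors and activity induce, had log2 values of 5.29 to 6.13 with a median of 5.84 in UBB+1 tg mice, and 6.41, 5.83, 6.71, 6.36 and 6.17 in wild-type mice. All wild-type mice except wt289 lay above every tg mouse. Its log2 fold change was −0.51 with a standard error of 0.18, an adjusted p from limma of 0.984 and an exact permutation p of 0.0346. Leaving out each animal moved it between −0.62 and −0.40. Its unadjusted p from limma was 0.0523 without wt290. Blocking on the array set gave −0.43 with an unadjusted p of 0.0213, and the middle set alone gave 0.0701.

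Arc, the effector among these genes, had log2 values of 6.93, 7.31, 6.81, 7.20, 7.18 and 6.27 in UBB+1 tg mice, and 7.20, 7.49, 7.51, 7.38 and 7.23 in wild-type mice. All 6 tg mice lay below the wild-type mean, 4 of them below every wild-type mouse, and tg277 was lowest. The log2 fold change was −0.41 with a standard error of 0.17, an adjusted p from limma of 0.984 and an exact permutation p of 0.0260. It was −0.56 in the high array set with 1 mouse against 1, −0.44 in the middle set and −0.04 in the low set with 1 against 2. The unadjusted p from limma, 0.0342, was 0.0706 with the array set as a block, 0.0506 with the 3'-5' difference as a term and 0.158 within the middle set. It stayed under 0.05 in 6 of 11 fits that left out 1 animal, and the log2 fold changes of those 11 fits ran from −0.48 to −0.27.

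**Figure D3:**
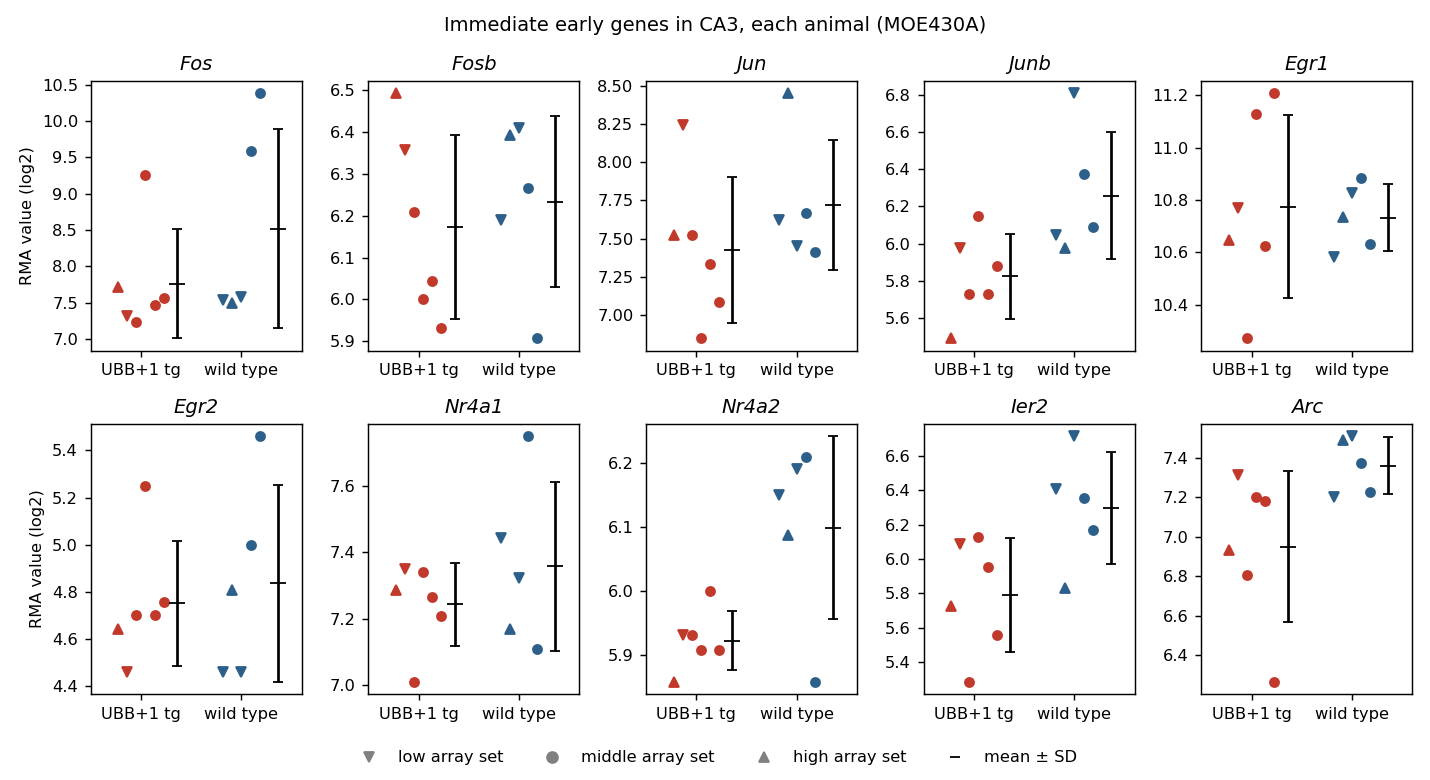
Log2 RMA values of the brightest MOE430A probe set of each of the 10 genes, 6 UBB+1 tg mice (left) and 5 wild-type mice (right) a panel, with the mean and SD as a black bar and the marker shape giving the array set. In Fos 3 animals stand apart, 1 of them tg, while in Junb, Ier2 and Arc the tg points lie lower as a group and overlap the wild-type points.

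The genes varied together only in part. Over the 45 pairs of the 10 genes (brightest probe sets, 11 animals of MOE430A), the median Pearson r was 0.23, 33 pairs were above 0 and 8 were over 0.6. Over all pairs of genes on the array the median r was 0.01, 50.8% were above 0 and 6.5% were over 0.6. With the genotype mean subtracted, the members' median was 0.14, with 28 pairs above 0. Then 3 of the 45 pairs were over 0.6, against 7.6% of all pairs of genes, a share near that background. The median r of the members was 0.33 with the array set mean subtracted and 0.43 within the 6 animals of the middle set. It was 0.07 when 2 animals were left out of all pairs, those whose mean over the 10 genes lay farthest from the median animal. All genes of an animal share its array and amplification, which the values of all pairs carry too. No pair had an adjusted permutation p under 0.05 over the 45, and 9 pairs had an unadjusted one.

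Since Fos fell into separate ranges, no r over all animals is given for its 9 pairs, and the other 36 pairs had a median r of 0.23. Of these, 7 were over 0.6, and 5 of the 7 joined Junb, Nr4a1, Nr4a2 and Ier2 to each other. Nr4a2 was read here by 1450749_a_at alone, which spanned only 0.35 log2 units. It had Pearson r of 0.04 to 0.39 with the other Nr4a2 probe sets. With the genotype mean subtracted, 4 of those 5 pairs were below 0.6. They were Junb with Nr4a2 at 0.40, Nr4a2 with Ier2 at 0.33, Nr4a1 with Nr4a2 at 0.59 and Nr4a1 with Ier2 at 0.57. Junb with Ier2 had the highest, with r = 0.80 (permutation p = 0.00283, adjusted 0.0637) and Spearman rho = 0.85 (permutation p = 0.00159, adjusted 0.0716). The r was 0.74 without the 2 animals farthest from the median of Junb, 0.67 with the genotype mean subtracted and 0.80 within the middle array set. Arc with Ier2 had r = 0.71 (permutation p = 0.0137, adjusted 0.206) and rho = 0.70 (permutation p = 0.0207, adjusted 0.311). Its r was 0.52 without the 2 animals farthest from the median of Arc and 0.52 with the genotype mean subtracted. At the other end, Fosb with Egr2 had r = −0.61 (permutation p = 0.0455, adjusted 0.227) and rho = −0.56 (permutation p = 0.0773, adjusted 0.416).

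**Figure D4:**
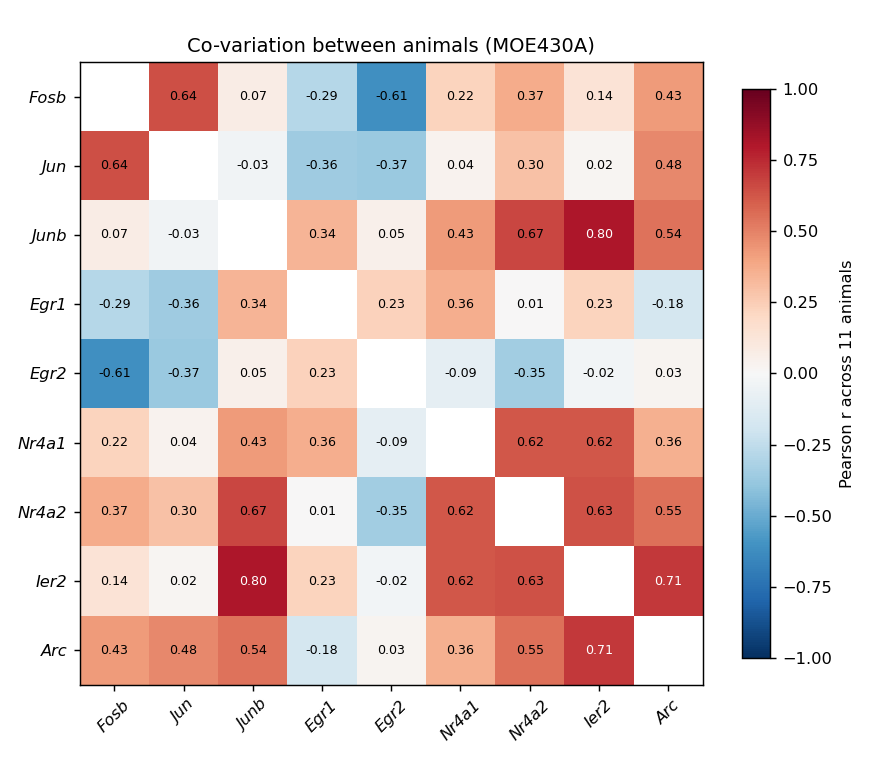
Pearson r across the 11 MOE430A animals for the 36 pairs of 9 genes, Fos left out because its values fall into 2 ranges. Nr4a1, Nr4a2, Ier2 and Arc form the block of red cells at the lower right, and Junb, set apart from them, is red with each. Egr2 has cells near or below 0 with all but Egr1.

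Within the 8 animals of the lower range of Fos, Egr2 had r = −0.02 (exact permutation p = 0.970), and the largest, Nr4a1, had r = 0.47 (exact permutation p = 0.250, adjusted 0.970 over the 9 genes). These 8 animals were set apart by Fos itself after the values were seen, and Fos spans only 7.24 to 7.72 in them, so that a low r there says little. Fos and the brighter probe set of Egr2, 1427683_at, had the same 3 highest animals, tg274, wt291 and wt321. Of 12392 genes on MOE430A, 165 or 1.33% had these animals as their 3 highest, Fos included. Among the other 9 members Egr2 was the 1 that did, though not at its dimmer probe set, 1427682_a_at. There tg273 and tg274 were highest, both at 4.0, and wt291 at 3.81 was level with tg271 and wt289. Of 16 other inducible transcription factors measured on MOE430A, 0 had tg274, wt291 and wt321 highest. Of 26 inducible signalling and effector genes 2 did, named after their values were seen. Dusp1, a phosphatase that switches off MAP kinases, was at 6.85, 6.57, 4.81, 7.35, 6.63 and 6.66 in UBB+1 tg mice and at 6.75, 7.07, 6.51, 7.46 and 7.97 in wild-type mice. Gadd45b, a stress gene that takes part in activity-dependent DNA demethylation, was at 6.95, 7.52, 7.24, 8.17, 7.67 and 7.74 in tg mice and at 7.48, 7.16, 7.49, 8.75 and 8.28 in wild-type mice. Both keep tg274, wt291 and wt321 on top. The same was seen, also picked out after the fact, for Creb1, which encodes the cAMP response element binding factor, among 18 upstream regulators, and for Syt1, a synaptic vesicle protein, among 7 neuronal markers on that array. Genes outside these lists had it too. By the log2 gap between these 3 animals and all others, Slco1c1 (0.52), Nop58 (0.46) and Hacd2 (0.44) followed Fos (1.53), ahead of Gadd45b (0.43). Egr2 and Dusp1 were not among the first 12.

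**Figure D5:**
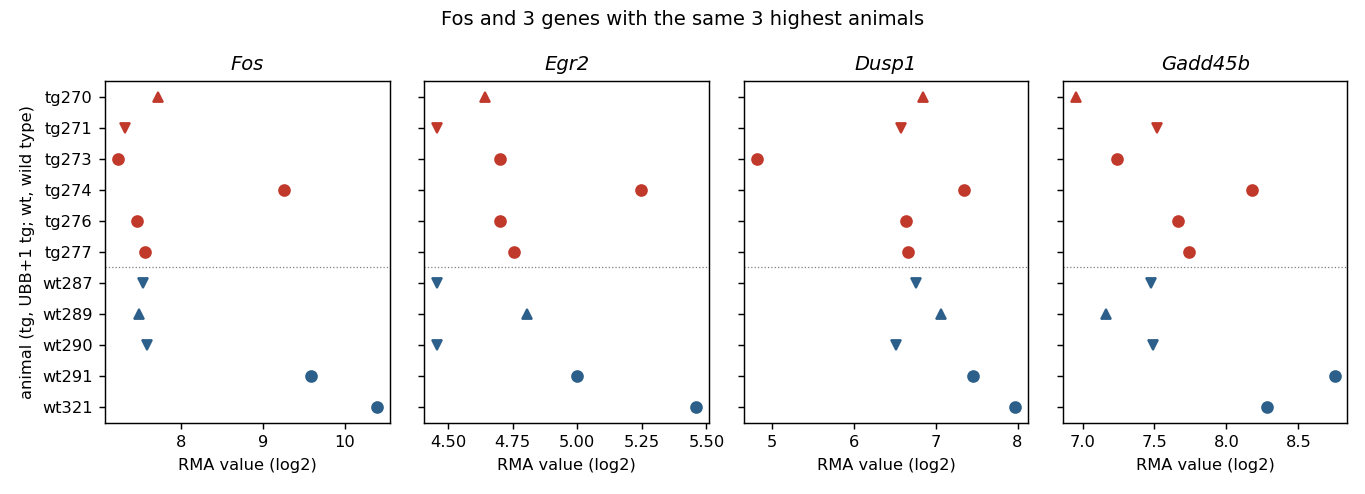
Log2 RMA values of Fos, Egr2 (1427683_at), Dusp1 and Gadd45b in each of 11 animals, UBB+1 tg above the dotted line and wild type below it. Each gene has its own axis, and marker shapes give the array sets as low (down), middle (circle) and high (up). In each panel tg274, wt291 and wt321 lie farthest right.

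Other genes of the same response had no call between the genotypes either, and the lists were not tested against the members. Of 18 further inducible transcription factors measured, such as Egr3 or Npas4, 0 had an unadjusted p under 0.05 in limma in either direction, with a median log2 fold change of −0.04. The smallest p were those of Npas4, a neuron-specific factor, at −0.29 (standard error 0.16), Klf4, a zinc finger factor, at 0.14 (standard error 0.08) and Klf2 at −0.20 (standard error 0.11). Of 29 inducible signalling and effector genes, 0 were above and 2 below wild type at that p, Ier3, a regulator of cell survival, at −0.42 (standard error 0.15) and Plk3, a polo-like kinase, at −0.32 (standard error 0.13). The median of this list was 0.07, with 18 genes above 0. Of 21 upstream regulators 1 was above wild type, Mef2a, an activity-dependent factor, at 0.44 (standard error 0.19), and the median was −0.005. Of 13 partners of Arc and relatives of AP-1, 0 were below this p. The genes named had an adjusted p from limma of 0.984 on MOE430A and, for Npas4, of 1.00 on MOE430B.

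Animals of both genotypes had been killed with carbon dioxide, so that a comparison of the genotypes cannot show its effect on any gene. Of 13 hypoxia genes 0 had an unadjusted p under 0.05 in limma, with a median log2 fold change of −0.06. The mean log2 level of the 12 on MOE430A lay between 6.68 and 7.08 in UBB+1 tg mice and between 6.83 and 7.14 in wild-type mice. Of the 9 marker lists other than that of CA3 (CA1, CA2, dentate granule cells, interneurons, astrocytes, oligodendrocytes, microglia, endothelium and neurons in general), only that of CA2 had a gene with an unadjusted p under 0.05, Cacng5, a regulator of AMPA receptors, at 0.71 (standard error 0.21), 1 of 5 measured. The summed level on MOE430A, on the log2 scale, of 4 CA2 markers ran from 9.27 to 11.38 in tg mice and from 9.11 to 10.27 in wild-type mice. That of 6 dentate granule markers ran from 8.31 to 8.92 in tg mice and from 8.63 to 9.11 in wild-type mice, and that of the interneuron markers from 10.73 to 12.03 in tg mice and from 11.04 to 11.66 in wild-type mice. Their part in the values of the immediate early genes was not tested.

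Outside the members, the genes whose values followed them most closely once the genotype mean was subtracted were Ctsc, Mpst, Letm1, Rgs10 and Tmem219, with mean Pearson r of 0.38, 0.38, 0.38, 0.37 and 0.37 over the 10 genes and 11 animals. They encode cathepsin C, a sulfur transferase, a mitochondrial ion exchanger, a regulator of G protein signalling and a membrane protein. Nup43, Hcrt and Tent5c had the lowest mean r, of −0.36, −0.36 and −0.37. These values are a description over 12392 genes.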

How the data were processed

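RNA of laser-cut CA3 tissue was hybridised to Affymetrix MOE430A and MOE430B arrays. The authors summarised the probes by RMA (background correction, quantile normalization and a summary per probe set), for each kind of array by itself, and the version was not given in the sources used here. The deposited MOE430A values are linear intensities in whole numbers, of which log2 was taken here. The deposited MOE430B values are on the log2 scale. RMA values are brightness and allow no comparison of levels between probe sets, and their precision is limited by how many arrays there are.

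Of 22690 and 22575 probe sets, 64 controls on each array and the probe set of the transgene's promoter were left out, which left 22625 and 22511. Genes were named by the array annotation. All probe sets were fitted in R 4.3.3 with limma 3.58.1 (lmFit, eBayes) as UBB+1 tg minus wild type. P-values were adjusted per array by Benjamini and Hochberg, at a false discovery rate of 10%. The fit was tested on simulated data. Where 1 probe set a gene was needed, it was that with the highest mean on the array. Exact permutation tests ran over all 462 splits of 6 against 5 mice, and correlations used 100000 permutations, two-sided (scipy).

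For the array sets, arrays were clustered by complete linkage, with 1 minus Pearson r over probe sets as the distance, into 3 groups. The members and gene lists were chosen with earlier results of these data known. Named are all probe sets of the members, up to 3 genes a list with the smallest p, and the 5 genes most and 3 least like the members. Others are said to be named after their values were seen. Labels and methods name different versions of the RNA isolation kit.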

Additional observations from a re-analysis of the deposited data

Results flagged for a closer look

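In 34 groups of values, 1 for each probe set and genotype, 3 had an animal whose gap to the nearest other animal was large against the range of the group, where chance alone gives about 5% of groups. Fos was at 9.26 in tg274, against 7.24 to 7.72 in the other 5 UBB+1 tg mice. Egr2 (1427683_at) was at 5.25 in the same animal, against 4.46 to 4.75 in the others, which is at the limit of the rule. Jun (1448694_at) was at 8.45 in wt289, against 7.41 to 7.67 in the other 4 wild-type mice.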

How the results depend on the processing

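The 0 calls on MOE430A held under every alternative run, and no member was called under any. On MOE430B 1 probe set outside the members was called without dim probe sets, 1 with the 3'-5' covariate and, with probe sets averaged per gene, 1 gene, and 0 to 1 when 1 animal was left out. The members below wild type at an unadjusted p under 0.05 on MOE430A numbered 1, Arc, without dim probe sets, where 5 of the 13 were kept. Junb, Ier2 and 1450749_a_at of Nr4a2 were left out there, with means at the 43rd, 43rd and 42nd percentile of the array. Members at this p numbered 2 within the middle array set, and 1 to 4 without 1 animal. On MOE430B such members numbered 0 to 1 without 1 animal. The median log2 fold change of the 10 genes stayed within the spread between animals, from −0.32 to −0.17 without 1 animal. The median r was 0.14 with the genotype mean subtracted, 0.30 for residuals on the 3'-5' difference and 0.33 with the array set mean subtracted. It was 0.43 in the middle array set, and 0.072 without the 2 animals whose mean over the 10 genes lay farthest from the median animal. Without the high array set it was 0.28 (added after seeing the data), and without 1 animal 0.16 to 0.27. The cause of these shifts was not tested.

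Signs turned for probe sets near 0. Egr1 was at −0.043 to 0.144 with animals left out. Egr2 1427683_at was at 0.037 with array weights and at −0.185 to 0.070 with animals left out. Egr2 1427682_a_at was at 0.010 with array weights, 0.040 without the high array set and −0.049 to 0.034 with animals left out. Fosb was at 0.014 with the array set as a block. Nr4a2 1433422_at was at 0.053 with the 3'-5' covariate, 0.026 with the block, 0.043 with the animals on both arrays and −0.066 to 0.043 with animals left out. No paired analysis was possible because no number or litter in the labels links a tg animal with a wild-type one. Signal near background limits Egr2 and the dimmer Jun probe set most, whose means lay in the lowest 20% of the array.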
